A study of Caenorhabditis elegans with 6 samples.

Results

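Splicing factor genes of Caenorhabditis elegans were followed in messenger RNA from whole adults of 3 strains. The set was defined by gene name: every row of the deposited count table whose name is rsp, prp, snr, uaf or sap followed by a hyphen and a digit, with 10 or more counts in at least 2 libraries. Of 46748 gene rows, 27 have such a name, and 27 of 27 reached the minimum, all with 10 or more counts in each of the 6 libraries. They were sorted by role into 8 genes of SR proteins (rsp-1 to rsp-8), 7 of Sm proteins (snr-1 to snr-7), 4 of factors at the 3′ splice site and the U2 particle (uaf-1, uaf-2, sap-49, prp-21), 6 of factors of the U4/U6.U5 particle (prp-3, prp-4, prp-6, prp-8, prp-31, prp-38) and 2 of factors that act in the activated spliceosome (prp-17, prp-19). The selection by name covers the gene classes that C. elegans nomenclature gave to splicing factors, not the whole spliceosome.

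Splicing removes introns from precursor RNA in a stepwise assembly of small nuclear ribonucleoprotein particles. Most of these particles carry a ring of Sm proteins around their RNA; SR proteins bind exons and help recruit the particles, the U2AF dimer marks the 3′ splice site, and the U4/U6.U5 particle then enters and is rearranged into the catalytic form. CSR-1 is an Argonaute protein of the germline that can cut RNA paired with its 22G RNAs, small RNAs that start with G and are antisense to many germline transcripts.

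N2 is the common laboratory strain and carries no transgene. WT is strain OD1463 and SIN is strain OD1175; both were homozygous for the csr-1 deletion allele tm892 and for transgenes, and their animals were taken, by how they moved, from the offspring of mothers heterozygous over a balancer. What SIN abbreviates is not in the labels. Going by knowledge of the study, its csr-1 transgene is inactive for slicing and that of WT is functional. SIN against WT thus compares strains without and with the cutting activity, and N2 serves as the control without deletion or transgene. Each group had 2 libraries, each from 100 gravid adults kept on OP50 at 20 °C. A stranded poly(A) kit was used on 500 ng of total RNA, and libraries were read as 50-base single ends in a single lane. The labels do not say that the libraries came from separate cultures, so the spread behind the p-values is that of these libraries and may be technical. In RNA from whole animals, fewer cells of a type and less RNA per cell cannot be told apart.

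Libraries held 33739391 to 44962816 counts, and 15404 genes passed the filter on low counts and were tested together with edgeR's quasi-likelihood test; levels are given as CPM, counts scaled to library size after TMM normalisation, for replicate 1 and then replicate 2. Reads of csr-1, which could come from the gene or a transgene, stood at 445 and 476 (N2), 662 and 636 (WT) and 2913 and 3308 CPM (SIN), so that SIN was 4.79-fold above WT (adjusted p = 0.000223). SIN and WT therefore differed in csr-1 RNA as well as, by the reading above, in cutting activity. The design cannot tell these apart. The first principal component of log2 CPM (53.7% of variance) set both SIN libraries apart from the other 4, and the second (29.2%) set replicate 1 of N2 apart from the rest. Within groups the 2 libraries correlated at r = 0.983 in N2, 0.997 in WT and 0.995 in SIN, across genes.

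In SIN, 12 of the 27 splicing factor transcripts were lower than in WT and 3 were higher, by modest amounts, and 12 did not pass the test. At a Benjamini-Hochberg adjusted p under 0.05 over all genes tested, which sets these counts, 13.3% of all tested genes fell and 12.1% rose. Falls ran from 1.25-fold (rsp-8) to 1.81-fold (rsp-5) and rises from 1.29-fold (prp-3) to 1.36-fold (prp-17). SR genes made up 7 of the 12 falls. The median log2 fold change of the 27 was -0.36, beside 0.04 for all tested genes. Summed over the 27 genes, the level was 4832 and 4892 CPM in the WT libraries and 4258 and 3985 CPM in SIN, a difference of -15.2% in the SIN mean. The 2 SIN libraries lay below both WT libraries for 22 genes, against 35.0% of tested genes, and above both for 3 genes, against 38.4%. These counts rest on having both libraries of each group: without WT replicate 1 or without WT replicate 2 none of the 27 passed the test with edgeR (adjusted p 0.0513 to 0.234 and 0.0586 to 0.198 for the 12, 0.154 to 0.225 and 0.12 to 0.142 for the 3). Without SIN replicate 1 or SIN replicate 2, rsp-6 was the 1 gene still past it (adjusted p = 0.0359 and 0.0473). The N2 libraries enter the fit through the filter, the scaling and the shared estimate of spread. Without N2 replicate 1 or 2, the median log2 fold change of the 27 was -0.37, beside 0.05 for all tested genes. The 15 called genes kept their sign in every fit with 1 library left out. Without a WT or SIN library, calls were also fewer over all tested genes. Scaling to the upper quartile raised the median of all genes by 0.14 (log2), turned the split over all genes from 1871 rises and 2051 falls to 2329 and 1227, and left 5 falls and 3 rises among the 27.

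**Figure D1:**
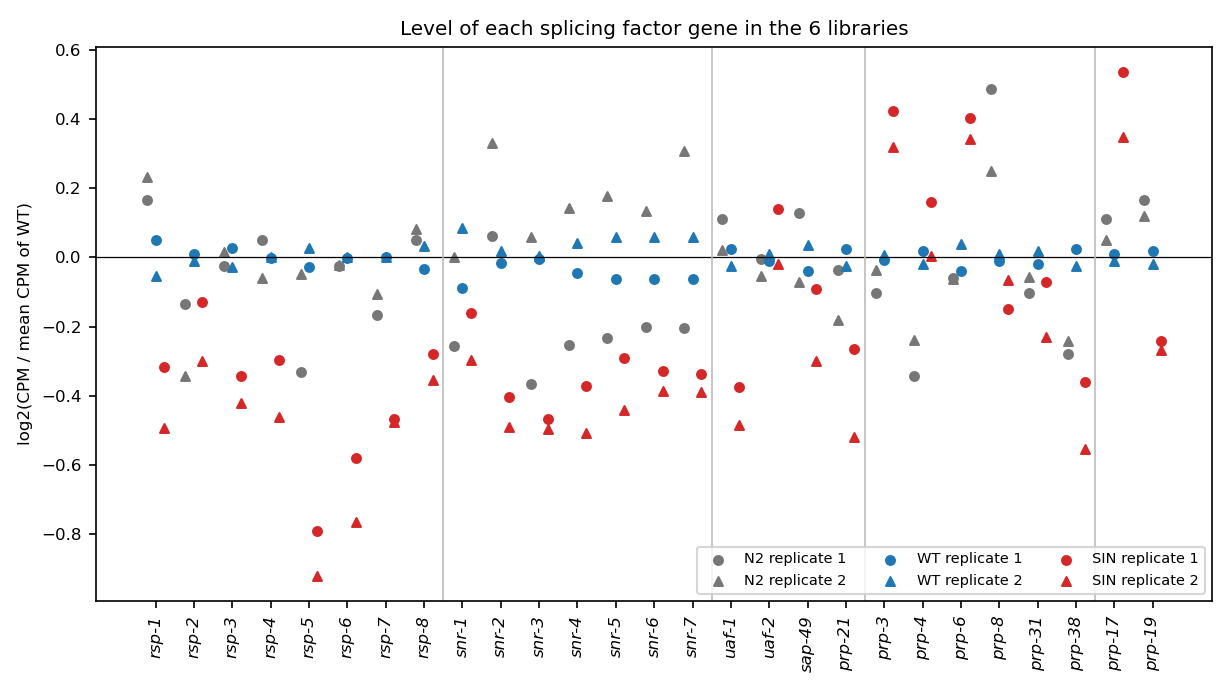
Level of each splicing factor gene in every library, as log2 of its CPM over the mean CPM of the 2 WT libraries; colours mark the strain and each point is 1 library. SIN points lie below both WT points for 22 of the 27 genes and above both for prp-3, prp-6 and prp-17.

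SR proteins carry RNA-binding domains and a tail rich in arginine and serine, and in animals they act both in constitutive splicing and in exon choice. In SIN, 7 of their 8 genes fell against WT, beside 13.3% of all tested genes. Summed CPM over the 8 was 1561 and 1542 in WT and 1200 and 1101 in SIN. The SIN mean differed by -25.8%.

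The fall in rsp-5, related to mammalian SC35, was the steepest among the 27 genes. It lies on chromosome II from 6490165 to 6491340 (plus strand). Its level was 108 and 131 (N2), 133 and 138 (WT) and 78.4 and 71.7 CPM (SIN). Both SIN libraries were below all 4 others, and the log2 fold change against WT was -0.85 ± 0.11 (SE; edgeR adjusted p = 0.00588). Next came rsp-6, the counterpart of mammalian SRp20 (chromosome IV, 7789847 to 7791229, minus strand). Its counts gave 213 and 214 (N2), 217 and 217 (WT) and 145 and 128 CPM (SIN). The 4 N2 and WT libraries spanned a narrow range, and SIN stood 1.59-fold below WT (log2 fold change -0.67 ± 0.089, edgeR adjusted p = 0.00584).

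For rsp-7, on chromosome II from 10659206 to 10662317 (plus strand), the levels were 83.6 and 87.2 (N2), 93.8 and 93.8 (WT) and 67.8 and 67.4 CPM (SIN). The 3 groups did not overlap, with WT highest and SIN lowest, and SIN was 1.39-fold below WT (adjusted p = 0.0106). Its exons share 73 bases with a gene on the opposite strand, D2089.8. Whether reads of D2089.8 were kept apart from those of rsp-7 is not known. The sources used here give no strand setting for the counting.

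The gene rsp-3 encodes the counterpart of SF2/ASF, a founding SR protein of mammals (chromosome III, 12686182 to 12687922, minus strand). It had 422 and 435 (N2), 438 and 422 (WT) and 339 and 321 CPM (SIN). N2 and WT overlapped, and SIN was below both, 1.30-fold below WT (adjusted p = 0.0245). The SC35 counterpart rsp-4 had 171 and 159 (N2), 165 and 165 (WT) and 135 and 120 CPM (SIN), again 1.30-fold below WT (adjusted p = 0.0283). The TRA2 counterpart rsp-8 went from 144 and 150 CPM in WT to 121 and 115 CPM in SIN, 1.25-fold lower (adjusted p = 0.0298), with N2 at 152 and 156 CPM.

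A pair of SR genes lies head to head on chromosome II, 406 bases apart: rsp-1, on the plus strand from 11453362 to 11455864, and rsp-2, on the minus strand from 11451441 to 11452955. Levels of rsp-1 were 183 and 191 (N2), 169 and 157 (WT) and 131 and 116 CPM (SIN). The 3 groups descended without overlap, and SIN was 1.32-fold below WT (adjusted p = 0.0254). Its neighbour rsp-2 had 182 and 157 (N2), 201 and 198 (WT) and 182 and 162 CPM (SIN). SIN lay below WT and overlapped N2, and the difference from WT, 1.16-fold, did not pass the test (adjusted p = 0.181). Whether rsp-2 differed from the other SR genes in its response was not tested. Without WT replicate 1 or 2 none of the 8 SR genes passed (adjusted p of the 7 from 0.0513 to 0.21 and 0.0586 to 0.194), and without SIN replicate 1 or 2 only rsp-6 did; with upper-quartile scaling rsp-5, rsp-6 and rsp-7 did.

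**Figure D2:**
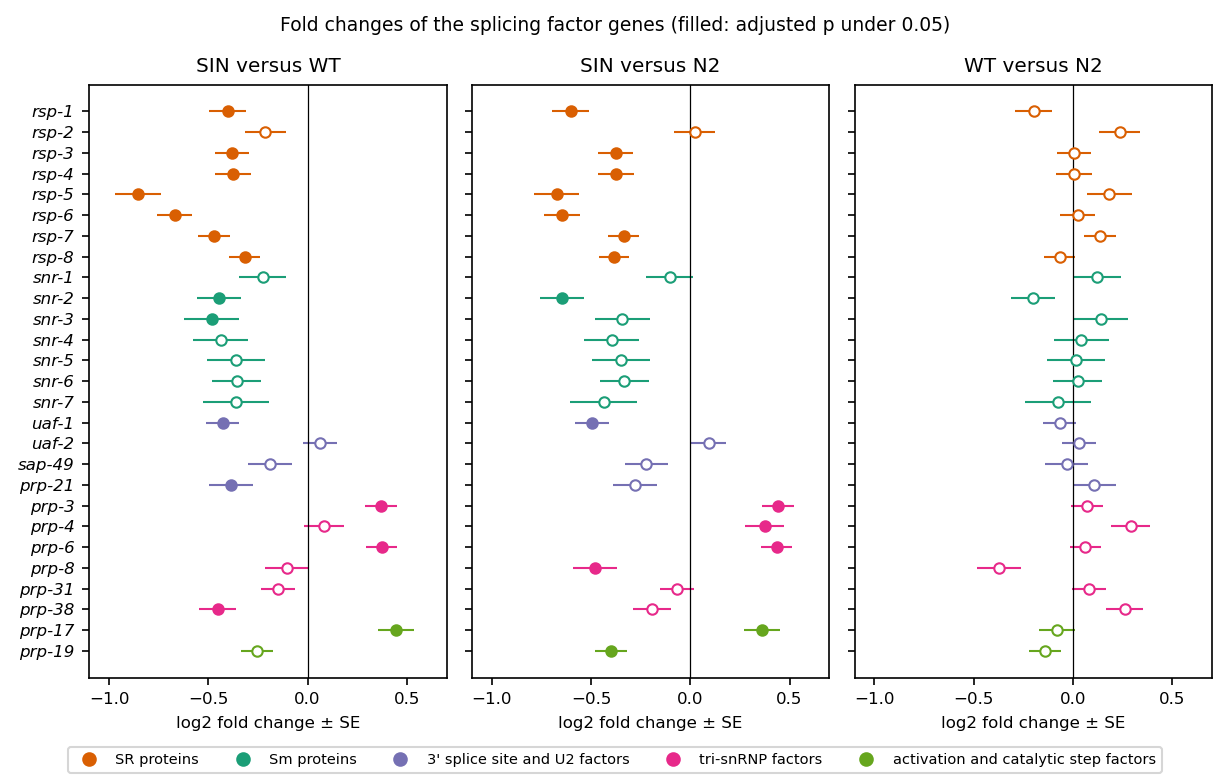
Log2 fold change of each splicing factor gene in the 3 comparisons (SIN against WT, SIN against N2, WT against N2), with bars for ± 1 SE of the fit; filled points passed an adjusted p of 0.05 over all genes tested. The panels for SIN against WT and SIN against N2 hold 15 filled points each, and the panel for WT against N2 holds none.

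Sm proteins form the ring on which the U1, U2, U4 and U5 particles are built. Of their 7 genes, 2 fell in SIN against WT (snr-2 and snr-3), beside 13.3% of all tested genes, and the other 5 did not pass the test. In all 7 both SIN libraries lay below both WT libraries, as they did for 35.0% of all tested genes. Summed CPM was 1180 and 1253 in WT and 960 and 897 in SIN, a difference of -23.7% between the means. The 2 N2 libraries differed here: each of the 7 genes was lower in replicate 1, and the sums were 1080 and 1373 CPM.

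The SmB gene snr-2 lies on chromosome I from 13339397 to 13340224 (plus strand). Its levels were 316 and 381 (N2), 299 and 306 (WT) and 229 and 216 CPM (SIN). SIN lay below both other groups, 1.36-fold below WT (log2 fold change -0.45 ± 0.11, adjusted p = 0.0309). The SmD1 gene snr-3 lies on chromosome II from 6488830 to 6489761 (minus strand), 403 bases from rsp-5 and pointing away from it. It had 126 and 169 (N2), 162 and 163 (WT) and 117 and 115 CPM (SIN), where SIN was 1.40-fold below WT (adjusted p = 0.0473). Head to head, snr-3 and rsp-5 were both past the threshold against WT.

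Among the other Sm genes, snr-4 (SmD2) had 236 and 250 (WT) against 188 and 171 CPM (SIN), 1.35-fold apart, at an adjusted p of 0.063 here; with DESeq2 it passed (adjusted p = 0.03). The differences of snr-5 (SmF), snr-6 (SmE) and snr-7 (SmG) were 1.28-fold to 1.29-fold with adjusted p between 0.0777 and 0.162. For snr-1 (SmD3) the difference was 1.17-fold (adjusted p = 0.207). The calls of snr-2 and snr-3 were lost on leaving out WT replicate 1 (adjusted p 0.165 to 0.196), WT replicate 2 (0.17 to 0.198), SIN replicate 1 (0.129 to 0.2) or SIN replicate 2 (0.172 to 0.211), and with upper-quartile scaling (0.078 to 0.116).

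Of the 4 genes for factors of the 3′ splice site and the U2 particle, uaf-1 and prp-21 fell in SIN against WT and the other 2 did not pass. Over all tested genes 13.3% fell. The large U2AF subunit binds the polypyrimidine tract and the small subunit the AG of the splice site, and they work as a dimer. The large-subunit gene uaf-1 (chromosome III, 1062794 to 1076555, minus strand) had 161 and 151 (N2), 152 and 147 (WT) and 115 and 107 CPM (SIN). SIN was below all 4 other libraries, 1.35-fold below WT (adjusted p = 0.0155). The small-subunit gene uaf-2 had 93.9 and 90.7 (N2), 93.5 and 94.9 (WT) and 104 and 93 CPM (SIN). Here the groups overlapped, and the log2 fold change was 0.06 ± 0.087 (adjusted p = 0.634). The difference between the 2 genes was not tested.

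Of the 2 genes for U2 particle proteins, prp-21 encodes the counterpart of a yeast and human SF3a subunit (chromosome II, 484866 to 490403, plus strand). It fell 1.31-fold, from 112 and 108 CPM in WT to 91.3 and 76.7 CPM in SIN (adjusted p = 0.0445), with N2 at 107 and 96.8 CPM. The SF3b gene sap-49 had 115 and 99.9 (N2), 102 and 108 (WT) and 98.7 and 85.4 CPM (SIN), a 1.14-fold difference from WT that did not pass (adjusted p = 0.247). The call of prp-21 lay near the threshold and was lost with RLE scaling (adjusted p = 0.0541) and upper-quartile scaling (0.108). Neither uaf-1 nor prp-21 passed without WT replicate 1 (adjusted p 0.151 to 0.234), WT replicate 2 (0.0976 to 0.148), SIN replicate 1 (0.0603 to 0.0632) or SIN replicate 2 (0.0881 to 0.17).

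The U4/U6.U5 particle delivers the catalytic RNA in an inactive form, and it was the group with calls in both directions in SIN against WT. Of its 6 genes, prp-3 and prp-6 rose in SIN against WT, prp-38 fell and the other 3 did not pass. Over all tested genes 12.1% rose and 13.3% fell, so the fall, 16.7% of the 6, was near the background. Whether the group differed from the others was not tested. Their summed CPM differed little between WT (1173 and 1191) and SIN (1222 and 1187).

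The gene prp-3 encodes a protein that binds paired U4 and U6 RNA in yeast and human (chromosome III, 10424113 to 10427982, minus strand). Its level was 132 and 138 (N2), 141 and 142 (WT) and 190 and 176 CPM (SIN). Both SIN libraries were above the 4 others, by 1.29-fold over WT (log2 fold change 0.37 ± 0.080, adjusted p = 0.0206). The gene prp-6 encodes a protein that bridges U5 and U4/U6 in yeast (chromosome V, 18022479 to 18042353, plus strand). Its level was 189 and 189 (N2), 192 and 203 (WT) and 261 and 250 CPM (SIN), 1.30-fold over WT (adjusted p = 0.0192), and SIN was again above every other library.

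In the other direction, prp-38, whose yeast counterpart is needed for activation of the assembled spliceosome, had 87 and 89.4 (N2), 107 and 104 (WT) and 82.3 and 71.9 CPM (SIN). It lies on chromosome V from 10804721 to 10806034 (minus strand). SIN was 1.37-fold below WT (adjusted p = 0.0183), while the difference from N2, 1.14-fold, did not pass (adjusted p = 0.172). The U5 gene prp-8, whose protein forms the core of the catalytic centre, had 671 and 570 (N2), 476 and 483 (WT) and 432 and 458 CPM (SIN). SIN was 1.08-fold below WT (adjusted p = 0.519), and the sign turned with upper-quartile scaling (log2 fold change 0.0319). The U4/U6 gene prp-4 had 52.6 and 56.6 (N2), 67.7 and 65.9 (WT) and 74.5 and 66.9 CPM (SIN), with WT and SIN overlapping. For prp-31, a U4/U6 protein gene, SIN at 183 and 164 CPM was 1.11-fold below WT at 189 and 194 CPM (adjusted p = 0.25).

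Of the 2 genes of the activated spliceosome, prp-17 rose in SIN against WT and prp-19 did not pass, where 12.1% of all tested genes rose. The gene prp-17, whose yeast counterpart acts in the second catalytic step, had 150 and 143 (N2), 139 and 138 (WT) and 201 and 176 CPM (SIN) (chromosome I, 10936815 to 10940521, plus strand). SIN was above all other libraries, 1.36-fold over WT (log2 fold change 0.44 ± 0.091, adjusted p = 0.0178). The ubiquitin ligase gene prp-19, whose product stabilises the active spliceosome in yeast, had 354 and 343 (N2), 319 and 311 (WT) and 267 and 262 CPM (SIN). The groups descended without overlap, but SIN against WT, 1.19-fold, did not pass (adjusted p = 0.0609); it passed with DESeq2 (adjusted p = 0.0267). On leaving out either WT library or either SIN library, prp-3, prp-6, prp-17 and prp-38 each lost the call: adjusted p for the 3 rises was 0.154 to 0.225 and 0.12 to 0.142 without WT replicate 1 and 2, and 0.0876 to 0.104 and 0.0521 to 0.0799 without SIN replicate 1 and 2. For prp-38 it was 0.157, 0.103, 0.0502 and 0.0842 in the same order.

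The authors' deposited table of SIN against WT, at its adjusted p under 0.05, held 3 of the 27 genes as higher and 14 as lower, beside 12.8% and 16.9% of the 15160 genes it lists with an adjusted p. Its 17 genes are the 15 above, snr-4 and prp-19.

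Against N2, the strain without deletion or transgene, SIN showed 11 falls and 4 rises among the 27 genes, where 13.3% of all tested genes fell and 12.3% rose. This comparison shares the SIN libraries with the one above, so the 2 sets of calls are not independent. The 7 SR genes that fell against WT fell against N2, led by rsp-5 (1.59-fold, adjusted p = 0.0103) and rsp-6 (1.56-fold, 0.00536); rsp-1 fell 1.52-fold (0.00776), rsp-3, rsp-4 and rsp-8 1.30-fold each, and rsp-7 1.26-fold. One Sm gene fell, snr-2, by 1.57-fold (adjusted p = 0.0106), as did uaf-1 by 1.41-fold (0.0101), prp-8 by 1.39-fold (0.0251) and prp-19 by 1.32-fold (0.0172). The rises were prp-3 (1.36-fold, adjusted p = 0.0124), prp-6 (1.35-fold, 0.0122), prp-4 (1.30-fold, 0.0379) and prp-17 (1.29-fold, 0.0314). Summed over the 27 genes, SIN differed by -17.1% from N2, whose libraries had 4885 and 5055 CPM. Both SIN libraries lay below both N2 libraries for 19 genes, against 33.1% of all tested genes, and above for 4, against 29.6%. Over all genes the split was 1899 rises and 2043 falls, and 2202 and 1490 with upper-quartile scaling, which left 10 falls and 4 rises among the 27 (prp-8 was lost, adjusted p = 0.055).

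The calls against N2 also rested on single libraries. Without N2 replicate 1, whose Sm levels were the lower ones, 16 genes fell, snr-3 to snr-7 among them, and 3 rose. Without N2 replicate 2 the median was -0.19, beside -0.02 for all tested genes. Leaving out WT replicate 1 gave 5 falls and no rise (rises at adjusted p 0.0514 to 0.118), WT replicate 2 gave 5 falls and 2 rises, SIN replicate 1 gave 2 falls (rsp-1 and rsp-6) and no rise (0.0805 to 0.158), and SIN replicate 2 gave 1 fall (rsp-6) and no rise (0.0515 to 0.079). A fit on the 4 N2 and SIN libraries alone kept rsp-1, rsp-5, rsp-6, snr-2 and uaf-1 as falls and prp-3 and prp-6 as rises.

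Between WT and N2, both with a functional csr-1 by the reading given above, none of the 27 genes passed edgeR's adjusted threshold in either direction, beside 0.0454% of tested genes higher and 0.0649% lower. With DESeq2 the count was 0 too, where 1054 genes in all were called. At an unadjusted p under 0.05 there were 3 of the 27 (2 higher, 1 lower), against 20.1% of all tested genes. The median log2 fold change was 0.02, beside -0.03 for all tested genes. Both WT libraries lay above both N2 libraries for 10 genes and below for 6, against 25.4% and 27.7% of tested genes. The difference of prp-8 was the widest: WT at 476 and 483 CPM was 1.29-fold below N2 at 671 and 570 CPM (adjusted p = 0.162). Replicate 1 of N2 stood apart from its pair, and with N2 replicate 2 left out instead, so that replicate 1 alone stood for N2, 4 genes passed: rsp-5 (adjusted p = 0.0284), snr-3 (0.011) and prp-4 (0.0467) as higher in WT, and prp-8 (0.00258) as lower. In that fit 4201 genes in all were called, so the 4 do not stand out from the background.

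Levels of different genes were set side by side per length of gene, as RPKM computed from deposited gene lengths and counts. The median of the 27 genes in N2 was 87.3 RPKM, beside 6.14 RPKM over all tested genes. By deposited lengths, the 3 highest in N2 were Sm genes. They were snr-2 at 476 ± 36.7 RPKM (mean ± SD, n = 2 libraries, as for all RPKM here), snr-5 at 289 ± 42.1 RPKM and snr-1 at 256 ± 18.4 RPKM. The gap from snr-2 to snr-5 exceeded their spread, while snr-5 and snr-1 did not differ beyond theirs. The SR gene rsp-3 followed at 238 ± 8.07 RPKM, within the spread of snr-6 (234 ± 25.8 RPKM) and snr-4 (232 ± 32.4 RPKM). At the low end were prp-4 at 33.4 ± 0.0746 RPKM, rsp-7 at 37.3 ± 0.923 RPKM, uaf-1 at 47.8 ± 4.73 RPKM and prp-21 at 48.3 ± 6.04 RPKM. In SIN snr-2 stood at 321 ± 17.2 RPKM and rsp-7, the lowest there by deposited lengths, at 31.1 ± 0.467 RPKM. For 9 of the 27 genes the deposited length was more than 1.2 times the union of exons in Ensembl release 115, up to 1.89 times for uaf-1 and rsp-8, so their RPKM would be higher with that annotation. With release 115 lengths, snr-4 would stand next after snr-2 in N2 (413 against 478 RPKM) and above it in WT (418 against 408 RPKM) and in SIN (332 against 322 RPKM), so which of the 2 genes comes first depends on the annotation. In N2, snr-6 (313 RPKM) would also pass snr-5 (291 RPKM), and snr-1 (217 RPKM) would lie below rsp-3 (261 RPKM). For uaf-1 the N2 value would be 90.4 RPKM, away from the low end. There prp-4 (33.4 RPKM), rsp-7 (46.9 RPKM) and prp-21 (48.3 RPKM) would stay.

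**Figure D3:**
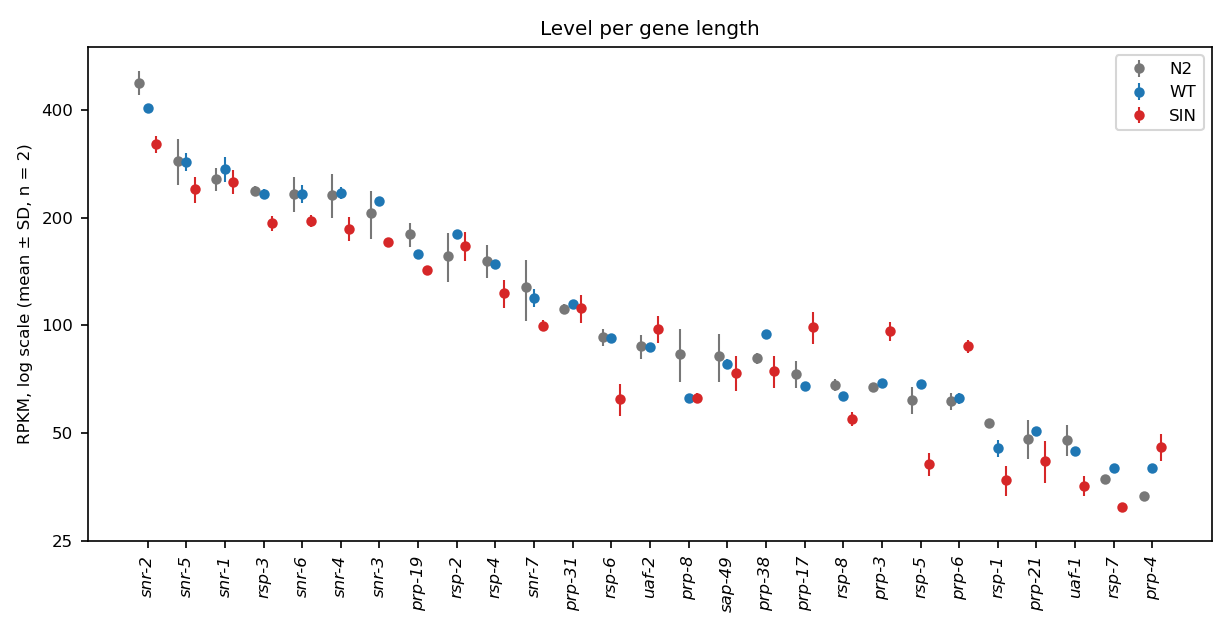
RPKM of each splicing factor gene in N2, WT and SIN on a log axis, as mean ± SD of 2 libraries. Genes are ordered from the highest to the lowest mean in N2. Sm genes, with snr-2 at 476 RPKM in N2, lie above most other genes, and prp-4 is at 33.4 RPKM.

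The table carries 22G RNA values per gene that come from other studies and not from these libraries. In the column credited to Claycomb, a score of 22G reads of unstated scaling, 27 of 27 splicing factor genes were listed, against 26.7% of tested genes. Their median was 159, beside 98.0 over the tested genes listed. In the column credited to Conine, 22G reads in a CSR-1 immunoprecipitate in RPM, 26 of 27 were listed (rsp-3 was not), against 34.1% of tested genes, with a median of 69.0 RPM beside 38.2 RPM. The deposited enrichment score of the precipitate over its input, a fraction, ran from 0.803 for rsp-4 to 0.945 for snr-3, with a median of 0.898 beside 0.860.

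Within the 27 genes, prp-8 had the most 22G reads in the Claycomb column (525), followed by prp-17 (420), rsp-1 (341) and prp-6 (306), and snr-6 had the fewest (32.8), with snr-7 at 43.1. The 3 genes that rose in SIN against WT had 219 (prp-3), 306 (prp-6) and 420 (prp-17). The 12 that fell ranged from 82.2 (rsp-5) to 341 (rsp-1) with a median of 143, and the 12 that did not pass from 32.8 to 525 with a median of 149. The ranges of the 3 groups overlapped. As a description across genes, which share libraries and are not independent replicates, the log2 of 22G reads and the log2 fold change of SIN against WT had Pearson's r = 0.50 and Spearman's rho = 0.46 over the 27 genes, beside r = 0.54 and rho = 0.53 over the 4114 tested genes with a value. Among those 4114 genes, 14.6% rose and 26.6% fell, and their median log2 fold change was -0.16.

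**Figure D4:**
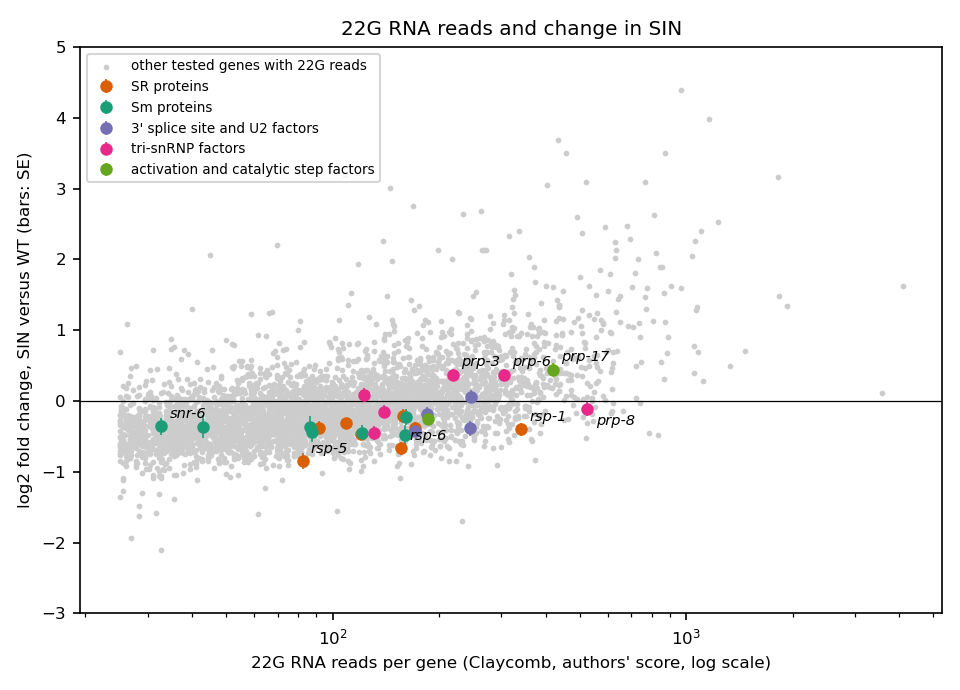
Log2 fold change of SIN against WT plotted on the 22G reads of the Claycomb column (log axis), for the 4114 tested genes with a value (grey; 1 lies outside the axis) and the 27 splicing factor genes (coloured by role). The 3 genes that rose have 219 to 420 reads, within the range of 32.8 to 525 over all 27.

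Deposited classes of germline expression took in most of the set. Of the 27 genes, 23 are marked germline expressed (30.0% of tested genes), 22 germline enriched (17.6%) and 18 germline specific (6.86%), although splicing is needed in every tissue. On the chromosomes, 8 genes lie on II, 8 on III, 5 on I, 3 on IV and 3 on V, and none on X, which holds 13.8% of the tested genes. The transcript with the most exons had a median of 4 exons over the 27 genes, beside 6 for all tested genes. Per release 115, 9 of the 27 share from 5 to 96 exon bases with another gene, mostly on the opposite strand. Whether reads there were kept apart is not known, since no strand setting for the counting is given.

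Other parts of the splicing machinery were taken as 3 lists of genes outside the name rule. Of 53 further spliceosome proteins found in the table, 5 rose and 7 fell in SIN against WT, with a median log2 fold change of -0.11; over all tested genes 12.1% rose and 13.3% fell, so the counts of this list are near the background. The rise of snrp-200, which encodes the helicase that unwinds U4 from U6 RNA in yeast and human, was larger than any in the 27. It had 349 and 296 (N2), 334 and 324 (WT) and 817 and 858 CPM (SIN), 2.54-fold over WT (adjusted p = 0.00121), and it passed in every alternative fit and with each library left out. Its 22G value, 1932, was above that of each of the 27 genes. A U4/U6.U5 factor gene, snu-66 (F19F10.9 in the table), rose 1.57-fold (adjusted p = 0.00861), and plrg-1, of the complex named after prp-19, fell 1.55-fold (0.00599). The gene gut-2 fell 1.67-fold (0.00911). Without either WT library plrg-1, snu-66 and gut-2 lost the call (adjusted p 0.0756, 0.0842 and 0.083 without WT replicate 1, and 0.0595, 0.082 and 0.0994 without WT replicate 2). Without a SIN library so did snu-66 (0.0685 and 0.0546) and gut-2 (0.0602 and 0.063). Against N2, 7 of the 53 rose and 6 fell, beside 12.3% and 13.3% of all tested genes.

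Of 19 regulators of alternative splicing, 1 rose and 2 fell in SIN against WT, no more than the 12.1% and 13.3% of all tested genes. The FOX family gene asd-1 rose 1.46-fold (adjusted p = 0.0132), while the hnRNP gene hrp-2 fell 1.29-fold (0.027) and mec-8, an RNA-binding regulator, fell 1.89-fold (0.0427). Spliced-leader trans-splicing joins a short leader RNA to the 5′ end of many C. elegans transcripts. Of 5 factors for it, 0 rose, 2 fell and 3 did not pass, beside 12.1% of all tested genes rising and 13.3% falling. The falls were sna-1, 1.41-fold (adjusted p = 0.0122), and sut-1, 1.52-fold (0.0186). Each of these 5 calls was lost when either WT library or either SIN library was left out (adjusted p 0.0965 to 0.21 without WT replicate 1, 0.111 to 0.172 without WT replicate 2, 0.0567 to 0.164 without SIN replicate 1 and 0.0685 to 0.211 without SIN replicate 2). With upper-quartile scaling hrp-2 (adjusted p = 0.108) and mec-8 (0.0759) lost it too.

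**Figure D5:**
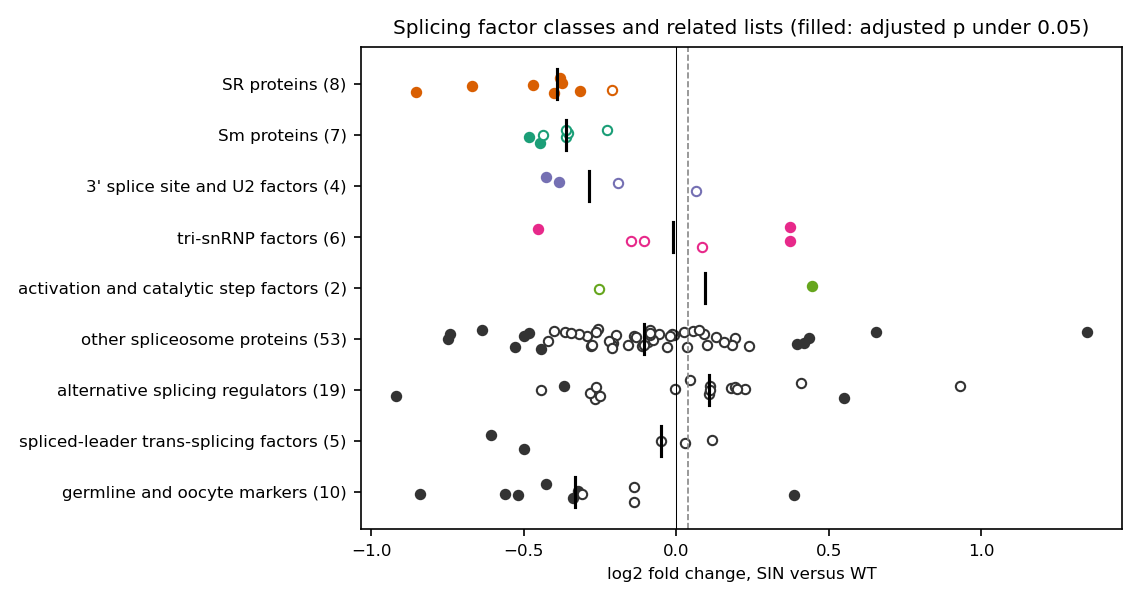
Log2 fold change of SIN against WT for every gene of the 5 roles, of the 3 further lists and of the germline and oocyte markers. Each point is 1 gene, bars are medians and the dashed line is the median of all tested genes. The median of SR genes is -0.39 and of Sm genes -0.36. That of the 53 further spliceosome proteins is -0.11, and snrp-200 stands highest among them at 1.35.

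Markers of tissues that a gravid adult holds moved in part with the strains. Of all tested genes, 12.1% rose and 13.3% fell in SIN against WT, and 13.3% fell in SIN against N2. The shares of embryo and intestinal markers called in SIN against WT were near those of all tested genes. Of 10 germline and oocyte markers, 6 fell and 1 rose in SIN against WT; their summed level was 9133 to 9795 CPM in N2, 9656 to 10020 CPM in WT and 7087 to 7271 CPM in SIN, a difference of -27.0% between SIN and WT. Sperm markers summed to 9.35 to 11.7 CPM in N2, 15.1 to 21.7 CPM in WT and 67.2 to 68.9 CPM in SIN, with 3 of 8 tested markers higher in SIN than in WT. Markers of embryos in the uterus summed to 131 to 180 CPM in N2, 111 to 116 CPM in WT and 96.3 to 106 CPM in SIN, with 1 of 9 lower in SIN than in WT and 5 of 9 lower than in N2. Of 7 intestinal markers 1 rose in SIN against WT, and they summed to 37819 to 45374 CPM in N2, 34032 to 35245 CPM in WT and 37973 to 46762 CPM in SIN. No tested muscle, neuronal or epidermal marker was called in SIN against WT. Muscle markers summed to 1416 to 3078 CPM in N2, 2176 to 2555 CPM in WT and 1416 to 2373 CPM in SIN. In the same order, neuronal markers summed to 294 to 300, 323 to 339 and 311 to 317 CPM. Epidermal markers summed to 375 to 1223, 772 to 1145 and 285 to 684 CPM. For muscle and epidermis, replicate 1 was the lower library in each strain. No marker was at 0 in all libraries. The part of these tissue differences in the levels of the splicing factor genes was not tested.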

How the data were processed

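The table holds, per the file headers, raw read counts per gene for 6 libraries. Per the submitters' processing notes, STAR, HTSeq, DESeq and DESeq2 were used, with the genome build WBcel235; the sources used here give no versions, roles, annotation release or strand setting. The deposited RPKM, 1 value per group, was matched by averaging RPKM computed per library. For SIN against WT the authors deposited log2 fold changes and an adjusted p-value per gene, and these were copied. Per the file headers, the deposited 22G columns are a score from Claycomb, its ratio to the group RPKM, RPM from Conine and a fraction over input, all from other studies.

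Counts were scaled by TMM and tested with edgeR 4.0.16 (limma 3.58.1, R 4.3.3) in 1 robust quasi-likelihood fit of all 6 libraries with 3 group means. The filter kept genes with about 10 counts in 2 libraries and 15 in total, 15404 of 46748, and left out at most 0.0476% of counts. The fit had 3 residual degrees of freedom, a prior of 3.58 and a biological coefficient of variation of 0.219. P-values were adjusted by Benjamini-Hochberg over all tested genes, and fold changes and SEs come from the fit. CPM sum to shares of mRNA, so a level is relative to the other transcripts. With 2 libraries against 2, a permutation test cannot go below p = 0.333, so none is given. The code was tested on simulated data.

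The 27 genes and the lists were chosen with earlier results of these data known. Every gene of the set may be named, csr-1 as a check of the labels, and from each further list the 4 tested genes with the smallest p in SIN against WT. Of the 55 spliceosome proteins listed, 53 matched the table, 19 regulators of alternative splicing did, and 5 trans-splicing factors; symbols were matched by gene ID, and coordinates are from Ensembl release 115 on WBcel235. Alternatives were RLE and upper-quartile scaling, DESeq2 1.42.0, no filter, only the 4 libraries compared, a replicate block, each library left out, and a minimum of 10 counts in all 6 libraries, which kept the same 27 genes. The 22G ratio columns were read and are not reported.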

Additional observations from a re-analysis of the deposited data

How the results depend on the processing

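Of the 27 genes, 3 were higher and 12 lower in SIN against WT; upper-quartile scaling left 5 lower. Leaving out 1 library gave 0 to 3 higher and 0 to 19 lower against WT, 0 to 4 higher and 1 to 16 lower against N2, and 0 to 3 higher and 0 to 1 lower for WT against N2; a lone library is then assumed to vary like the other groups. With only the 4 libraries compared, 2 were higher and 5 lower against N2. Over all genes, SIN against WT had 3922 calls, 6521 with only the 4 libraries and 361 to 6751 with 1 left out. SIN against N2 had 3942, with 5922 without the filter, 1914 with only the 4 libraries and 704 to 6028 with 1 left out. WT against N2 had 17, with 29 by RLE, 10 by upper quartile, 1054 by DESeq2, 2217 without the filter, 0 with only the 4 libraries and 0 to 4201 with 1 left out. Fits with fewer libraries have fewer degrees of freedom, and the cause of these shifts was not tested.

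The groups share replicate numbers, and deviations of the same-numbered libraries correlated at 0.243 (N2 and WT), 0.372 (N2 and SIN) and 0.349 (WT and SIN), but each comparison has only 2 pairs and no label ties a number to a batch. With a replicate block, 3 of the 27 were higher and 14 lower in SIN against WT, and 4 higher and 11 lower against N2; over all genes 4898, 4907 and 253 were called in SIN against WT, SIN against N2 and WT against N2.

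Signs changed only for log2 fold changes that had not passed. With 1 library left out, the values in SIN against WT ran from -0.0242 to 0.133 for uaf-2, -0.00104 to 0.152 for prp-4, -0.154 to 0.0345 for sna-2, -0.0519 to 0.195 for prp-18 (F32B6.3) and -0.0668 to 0.0704 for prp-9 (T13H5.4). Those in SIN against N2 ran from -0.0828 to 0.12 for rsp-2, -0.237 to 0.026 for snr-1 and -0.151 to 0.00776 for prp-31. In WT against N2 they ran from -0.0197 to 0.0815 for rsp-3, -0.0439 to 0.0594 for rsp-4, -0.000867 to 0.264 for snr-1, -0.0591 to 0.374 for snr-3, -0.143 to 0.261 for snr-4, -0.177 to 0.24 for snr-5, -0.135 to 0.208 for snr-6, -0.309 to 0.21 for snr-7, -0.105 to 0.00774 for uaf-1 and -0.121 to 0.0715 for sap-49. Upper-quartile scaling gave 0.0319 for prp-8 and 0.0845 for sna-2 in SIN against WT and 0.0138 for prp-31 in SIN against N2. For WT against N2 it gave -0.0487 (rsp-3), -0.0505 (rsp-4), -0.0298 (rsp-6), -0.0104 (snr-4), -0.0385 (snr-5), -0.0295 (snr-6) and -0.0243 (uaf-2). Without the filter prp-9 was at -0.0337 in SIN against WT.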

Other observations

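Ensembl release 115 gives names of the same classes to 5 further genes that the deposited table lists under cosmid names; they fall outside the name rule and were added after their values were seen. In SIN against WT, sap-140 (C07H6.4) fell 1.27-fold, from 142 ± 0.832 CPM in WT to 112 ± 7.63 CPM in SIN (mean ± SD, n = 2; edgeR adjusted p = 0.0396). That call was lost on leaving out WT replicate 1 (adjusted p = 0.222), WT replicate 2 (0.162), SIN replicate 1 (0.091) or SIN replicate 2 (0.167), and with upper-quartile scaling (0.119). The U1 factor gene prp-40 (ZK1098.1) stood at 150 ± 2.65 CPM in WT and 187 ± 19.8 CPM in SIN, and prp-39 (F25B4.5) at 163 ± 1.98 CPM in WT and 142 ± 1.01 CPM in SIN; neither passed (edgeR adjusted p = 0.0509 and 0.104). For prp-9 (T13H5.4) and prp-18 (F32B6.3) the log2 fold changes were 0.01 and 0.08.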
